A study of Mus musculus with 1 sample.

Results

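The genes described here are 3 growth factors made by mesenchyme, Fgf7, Fgf10 and Hgf, and 5 receptors, Met and Fgfr1 to Fgfr4, that is 8 of the 32285 genes of the count table. They were chosen by symbol, with earlier results of these data known. They were read in a single-cell library of the pancreas of Scap f/f mice, which carry the floxed Scap alleles without a Cre recombinase and served as the study's wildtype control. The animals were 2 weeks old, and 5 to 6 pancreata of males and females were pooled before collagenase digestion and removal of dead cells, so that the library cannot show the spread between animals. All levels below come from this 1 library, and every interval covers counting error only.

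FGF7 and FGF10 are secreted by mesenchymal cells and bind mainly the IIIb splice form of FGFR2, which epithelial cells make. FGF10 from the mesenchyme is known to keep pancreatic progenitors growing in the embryo. HGF is secreted as an inactive chain, is cut by proteases at the surface of target cells and binds the receptor tyrosine kinase MET.

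After filtering, 10947 of 11789 barcodes (92.9%) and 49202966 UMIs remained, with a median of 2650 UMIs per cell. Cells were sorted into classes by marker genes that did not include the 8 genes. The fibroblast-like class held 5740 cells (median 2690 UMIs), the acinar-like class 900 (5265.5 UMIs) and the duct-like class 118 (20354.5 UMIs). The mesothelial-like class had 531 cells, and the T cell-like and red blood cell-like classes, which served as background, had 904 (1728.5 UMIs) and 395 (1444 UMIs). Smaller classes were pericyte-like (99), smooth muscle-like (124), endothelial-like (149), Schwann-like (58), B cell-like (301) and other immune-like cells (311). A further 1026 cells kept more than 1 gate after the rules of precedence given below, and Scrublet marked 32.1% of them as doublets. Of these, 199 passed the pericyte-like and endothelial-like gates, more than either class held. Another 284 passed none and 7 were endocrine-like. Of 40 markers kept out of the gates, 35 were highest in their own class, and the exceptions were Nr5a2, Sst, Cspg4, Csf1r and C1qa. None of the 118 duct-like cells was marked as a doublet, although their depth was high and acinar marker genes made up 10.1% of their UMIs, against 23.9% in acinar-like cells. The duct-like class includes many cells that also reached the acinar-like cut of 5% of UMIs. Their median share of acinar marker UMIs was 9.73%, so at least 59 of the 118 lay above that cut.

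On GRCm38 (GENCODE M21) Fgf7 lies on chr2:126034658-126091185, Fgf10 on chr13:118669791-118792115, Hgf on chr5:16553495-16620152, Met on chr6:17463800-17573980, Fgfr1 on chr8:25513654-25575718, Fgfr3 on chr5:33721674-33737068 and Fgfr4 on chr13:55152640-55168759, all on the plus strand. Fgfr2 lies on the minus strand of chromosome 7, where RefSeq places it at chr7:130162451-130266808. In GENCODE M21, 1 of its 27 transcripts extends to chr7:133123350 and spans 2960.9 kb, while the next longest spans 103.8 kb. The long model takes in 35 further genes on the same strand. Whether the reference used for the counts carried it was not tested, so UMIs listed as Fgfr2 may include reads from outside the 104.4 kb gene.

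RefSeq (GRCm38.p6) promoter windows of 300 bases, 250 before and 50 after the start, matched 7 of the 8 genes. The windows of the 5 genes with a single listed start are shown, since each of these has 1 window to be read beside its levels. They are Fgf7 (chr2:126034408-126034707, plus strand) and Fgf10 (chr13:118714449-118714748, plus strand) among the ligands, and Met (chr6:17463707-17464006, plus strand), Fgfr2 (chr7:130266759-130267058, minus strand) and Fgfr4 (chr13:55152568-55152867, plus strand) among the receptors. Capitals mark matches on either strand to TATAAA (the letters of a TATA box), to CCAAT (the box of that name), or to GGGCGG (a GC box).
Fgf7: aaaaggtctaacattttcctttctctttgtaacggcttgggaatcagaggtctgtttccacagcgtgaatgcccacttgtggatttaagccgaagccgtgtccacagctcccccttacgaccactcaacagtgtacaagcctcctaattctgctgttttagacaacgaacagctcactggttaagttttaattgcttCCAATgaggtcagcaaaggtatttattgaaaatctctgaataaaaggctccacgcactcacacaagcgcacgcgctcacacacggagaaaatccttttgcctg
Fgf10: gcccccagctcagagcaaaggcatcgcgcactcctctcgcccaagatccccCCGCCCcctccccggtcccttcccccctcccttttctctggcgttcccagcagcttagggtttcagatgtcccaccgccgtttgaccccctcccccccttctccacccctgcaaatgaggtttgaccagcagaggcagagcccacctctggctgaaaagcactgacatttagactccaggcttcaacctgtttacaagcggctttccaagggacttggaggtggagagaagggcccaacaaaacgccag
Met: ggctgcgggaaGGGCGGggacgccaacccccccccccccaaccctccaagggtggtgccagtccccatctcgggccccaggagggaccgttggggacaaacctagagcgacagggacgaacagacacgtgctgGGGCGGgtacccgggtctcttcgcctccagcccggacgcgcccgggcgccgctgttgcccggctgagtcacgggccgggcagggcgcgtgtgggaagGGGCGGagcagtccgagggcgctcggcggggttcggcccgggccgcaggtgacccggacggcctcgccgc
Fgfr2: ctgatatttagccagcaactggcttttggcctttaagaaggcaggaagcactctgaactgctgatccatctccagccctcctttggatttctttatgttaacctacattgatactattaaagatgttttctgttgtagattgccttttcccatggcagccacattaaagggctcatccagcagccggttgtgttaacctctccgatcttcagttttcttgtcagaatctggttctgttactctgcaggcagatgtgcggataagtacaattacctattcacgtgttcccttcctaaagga
Fgfr4: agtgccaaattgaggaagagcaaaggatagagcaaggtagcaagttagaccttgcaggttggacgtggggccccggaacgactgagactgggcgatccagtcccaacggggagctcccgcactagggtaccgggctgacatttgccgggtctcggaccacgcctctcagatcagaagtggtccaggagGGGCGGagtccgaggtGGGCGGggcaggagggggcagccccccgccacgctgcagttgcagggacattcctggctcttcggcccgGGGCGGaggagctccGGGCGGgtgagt
The windows did not separate ligands from receptors by CpG count. Met and Fgfr4 held 34 and 20 CpG dinucleotides with 3 and 4 matches to GGGCGG, Fgf7 and Fgf10 held 11 and 10 CpG with 0 and 1 such matches, and Fgfr2 held 4 CpG with 0 matches. The pairs of windows of the genes not shown held 7 and 6 CpG for Hgf and 26 and 30 for Fgfr3. Over 32851 windows of the same length the median was 7 CpG, and 35.7% held GGGCGG. The Fgf7 window had 1 match to CCAAT, a motif found in 37.4% of windows, and TATAAA, found in 13.6%, was in none of the 5. These matches describe the letters of the windows and say nothing of which factors bind them. The Fgf10 window lies inside the GENCODE M21 span of that gene, which begins at chr13:118669791. Whether the listed starts are the ones used in these cells was not tested.

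The ligands were fibroblast genes in this library. Fgf10 lay at 159 CPM in fibroblast-like cells (UMIs of the gene per 1000000 UMIs of the class, 95% interval 153 to 164, 3143 UMIs), and these cells held 90.1% of all Fgf10 UMIs. It was at 62.7 CPM in pericyte-like cells (36.5 to 100.4), 19.4 CPM in smooth muscle-like cells (9.30 to 35.7) and 18.3 CPM in mesothelial-like cells (13.8 to 23.7). Acinar-like cells had 3.22 CPM (2.24 to 4.47) and duct-like cells 4.58 CPM (2.51 to 7.69), beside 1.38 CPM (0.285 to 4.04) in T cell-like and 2.92 CPM (0.354 to 10.6) in red blood cell-like cells. The ratio of fibroblast-like to acinar-like cells was 49.3 (35.4 to 70.9) and that to duct-like cells 34.6 (20.6 to 63.3). The order was fibroblast-like, then pericyte-like, then a pair of classes, smooth muscle-like and mesothelial-like, that did not differ beyond counting error. Of the 10 smooth muscle-like UMIs, 7 came from 1 cell, and without it the level was 5.97 CPM.

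Fgf7, also called keratinocyte growth factor, was at 45.4 CPM in fibroblast-like cells (42.5 to 48.5, 900 UMIs). Pericyte-like cells had 22.1 CPM from 6 UMIs (8.12 to 48.2), and the ratio of fibroblast-like to pericyte-like cells, 2.05 (0.939 to 5.61), did not differ from 1 beyond counting error. Mesothelial-like cells had 4.57 CPM, duct-like cells 2.29 CPM and acinar-like cells 0.459 CPM. Fibroblast-like cells were thus 9.94 times (5.89 to 18.3) above mesothelial-like, 19.8 times (9.57 to 49.4) above duct-like and 98.8 times (42.2 to 305) above acinar-like cells.

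Hgf, the ligand of MET, reached 41.2 CPM in fibroblast-like cells (38.4 to 44.1, 817 UMIs) and 47.9 CPM in pericyte-like cells (25.5 to 82.0), which did not differ beyond counting error. Of the 13 pericyte-like UMIs 8 came from 1 cell, and without that cell the level was 18.6 CPM. Smooth muscle-like cells followed at 23.3 CPM, other immune-like cells at 17.3 CPM (9.48 to 29.1) and endothelial-like cells at 11.9 CPM (5.69 to 21.8), with 5 of the 10 endothelial-like UMIs in 1 cell, leaving 5.96 CPM. T cell-like cells had 0.461 CPM. Duct-like cells had 0 UMIs of Hgf, so that fibroblast-like cells were at least 42.0-fold higher when a floor of 3 counts over the class is used. Acinar-like cells had 1.01 CPM.

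Pericyte-like cells also carried the fibroblast receptor gene Pdgfra at 114 CPM, against 404 CPM in fibroblast-like cells, and 2.78% of their UMIs came from the fibroblast gate genes, against 5.34%. Cells that passed both the pericyte-like and the fibroblast-like gate were kept as pericyte-like. The part of fibroblast RNA in the pericyte-like ligand levels was not tested.

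**Figure D1:**
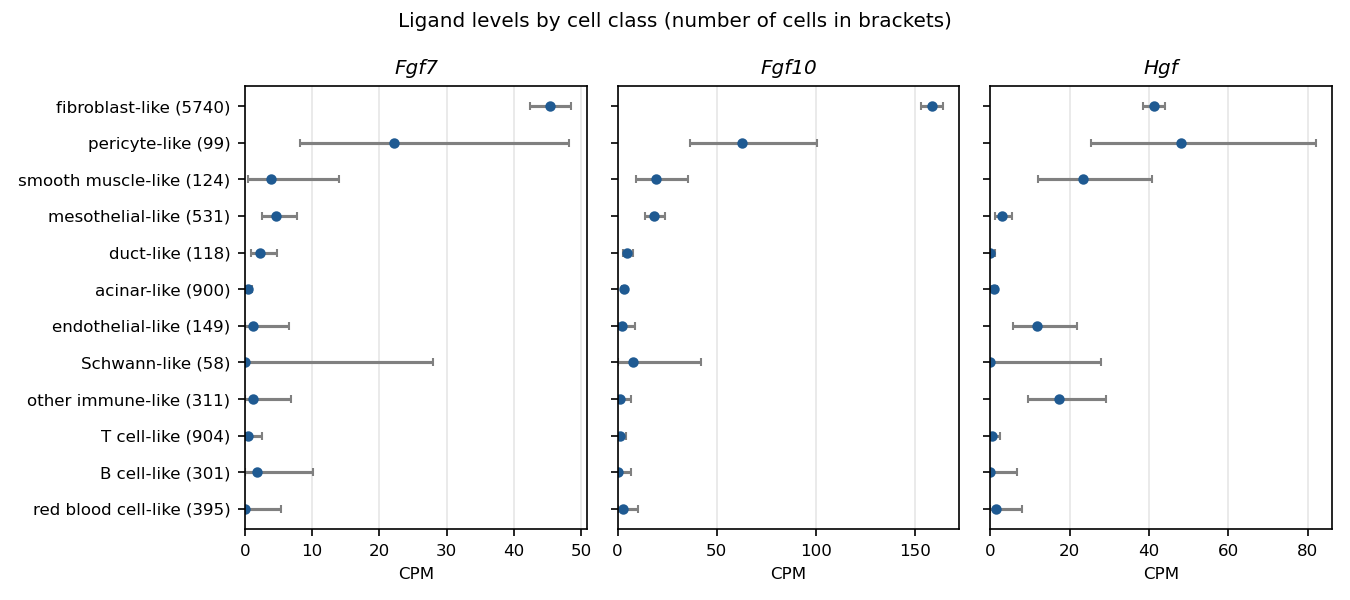
Levels of Fgf7, Fgf10 and Hgf (CPM, linear axes from 0) in 12 cell classes, with points for the class level, bars for the exact 95% Poisson interval and the number of cells in brackets. Fibroblast-like cells stand at 45.4, 159 and 41.2 CPM, the epithelial classes lie near 0, and the wide pericyte-like bars rest on 6, 17 and 13 UMIs.

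A UMI of Fgf10 was found in 27.7% of fibroblast-like cells (26.5 to 28.9%), of Fgf7 in 12.6% (11.7 to 13.4%) and of Hgf in 6.50% (5.87 to 7.17%). In red blood cell-like cells, which should lack all of them, the shares were 0.506%, 0% and 0.253% at a median depth of 1444 UMIs against 2690. At a matched depth of 800 UMIs per cell the fibroblast-like shares were 9.51%, 3.85% and 2.46%, so most cells without a UMI cannot be called negative. Hgf was concentrated in few cells. The 10 fibroblast-like cells with 10 or more Hgf UMIs held 22.2% of its UMIs, and the richest cell held 47. The 22 cells with as many Fgf10 UMIs held 9.55% of that gene's UMIs, and for Fgf7 there was 1 such cell, with 2.22%.

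All 3 ligands were seen together in 39 fibroblast-like cells (0.679%), 2 of them in 389 cells (6.78%) and 1 in 1788 cells (31.1%), with median depths of 7253, 4518 and 3126 UMIs. Cells with none, 3524 in number, had a median of 2341 UMIs. On the CPM scale, Fgf7 was at 56.3 CPM (51.0 to 62.0) in cells with a UMI of Fgf10 and at 39.0 CPM (35.7 to 42.7) in cells without, with median depths of 3640 and 2425 UMIs. At the matched depth a UMI of Fgf7 was found in 4.03% (3.12 to 5.11%) and 3.78% (3.22 to 4.41%) of these cells, which did not differ beyond counting error. Hgf was at 42.6 CPM (38.0 to 47.6) and 40.4 CPM (37.0 to 44.1) in the same cells, which did not differ beyond counting error.

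Fibroblast-like cells were divided by 3 marker pairs. Cells with Rspo3, a secreted enhancer of WNT signaling, and Cxcl14, a chemokine, numbered 427, cells with Mfap4, a protein of elastic fibers, and Meox2, a homeobox gene, numbered 1118, and cells with Pi16 and Pcolce2, known from adventitial fibroblasts, numbered 680. Most fibroblast-like cells (3332) passed no pair, and 183 passed more than 1.

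The Rspo3 Cxcl14 cells had the most Fgf10, at 286 CPM (434 UMIs). Cells with no pair had 183 CPM, Pi16 Pcolce2 cells 142 CPM and Mfap4 Meox2 cells 49.6 CPM, and each step of this order was larger than counting error. Rspo3 Cxcl14 cells were 5.78 times (4.82 to 6.95) above Mfap4 Meox2 cells and 2.01 times (1.76 to 2.30) above Pi16 Pcolce2 cells, and Pi16 Pcolce2 cells were 2.87 times (2.40 to 3.45) above Mfap4 Meox2 cells. The share of cells with a UMI followed the same order at the matched depth, with 19.0% in Rspo3 Cxcl14 cells, 10.9% with no pair, 6.62% in Pi16 Pcolce2 cells and 3.67% in Mfap4 Meox2 cells. The intervals of Pi16 Pcolce2 cells (4.87 to 8.76%) and Mfap4 Meox2 cells (2.64 to 4.94%) overlap, so that step rests on the CPM scale. When cells were clustered, the clusters assigned to Rspo3 Cxcl14 had 275 and 194 CPM of Fgf10. Those assigned to Pi16 Pcolce2 had 190, 155 and 98.2 CPM, and those assigned to Mfap4 Meox2 46.9 and 34.2 CPM.

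Fgf7 was flatter. It lay at 70.0 CPM in Rspo3 Cxcl14 cells, 42.2 CPM in Mfap4 Meox2 cells and 33.2 CPM in Pi16 Pcolce2 cells. The first was 1.66 times (1.28 to 2.15) above the second and 2.10 times (1.59 to 2.78) above the third, while Mfap4 Meox2 and Pi16 Pcolce2 cells did not differ beyond counting error (ratio 1.27, 0.978 to 1.65). At the matched depth the shares, in that order, were 6.32% (4.21 to 9.07%), 3.04% (2.12 to 4.22%) and 3.09% (1.92 to 4.68%). These intervals overlap, so the order of Fgf7 rests on the CPM scale. The clusters assigned to Rspo3 Cxcl14, of 901 and 983 cells, had 74.0 and 49.6 CPM. A Pi16 Pcolce2 cluster had 53.7 CPM and a Mfap4 Meox2 cluster 53.2 CPM.

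Hgf was at 68.0 CPM in Rspo3 Cxcl14 cells, 53.4 CPM in Mfap4 Meox2 cells and 9.18 CPM in Pi16 Pcolce2 cells. The ratio of Rspo3 Cxcl14 to Mfap4 Meox2 cells was 1.27 (0.989 to 1.63), within counting error. Both were above Pi16 Pcolce2 cells, by 7.41 times (4.86 to 11.6) and 5.82 times (3.92 to 8.94). When clusters took the place of the gates the first of these ratios was 3.59. In the Rspo3 Cxcl14 cells 19 of 103 Hgf UMIs came from 1 cell, without which the level was 55.7 CPM. The Mfap4 Meox2 level was uneven as well. The clusters with the most Mfap4 and Meox2, of 824 and 658 cells, had 107.9 and 16.6 CPM of Hgf, and the second lay within the range of 10.8 to 36.1 CPM over the 3 clusters assigned to the Pi16 Pcolce2 pair.

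On the CPM scale the receptor Met ran the other way among these cells. It lay at 22.5 CPM in Pi16 Pcolce2 cells, 3.56 CPM in Mfap4 Meox2 cells and 3.30 CPM in Rspo3 Cxcl14 cells, so that Pi16 Pcolce2 cells were 6.31 times (3.40 to 12.8) above Mfap4 Meox2 cells. None of the 680 Pi16 Pcolce2 cells fell in a mesothelial cluster by clustering. At the matched depth a UMI of Met was found in 1.47% (0.707 to 2.69%) of Pi16 Pcolce2 cells. The shares were 0.358% (0.0976 to 0.914%) in Mfap4 Meox2 and 0.234% (0.00593 to 1.30%) in Rspo3 Cxcl14 cells. These intervals overlap, so the order of Met rests on the CPM scale. The Pi16 Pcolce2 level was also uneven. The clusters assigned to that pair, of 1013, 892 and 234 cells, had 26.8, 9.99 and 7.55 CPM of Met. Those assigned to Mfap4 Meox2 had 7.33 and 2.02 CPM, and those assigned to Rspo3 Cxcl14 6.08 and 4.80 CPM. Fgfr1, the main FGF receptor of mesenchyme, was nearly even, from 215 CPM in Mfap4 Meox2 to 264 CPM in Pi16 Pcolce2 cells (ratio 1.23, 1.11 to 1.36), and Fgfr2 lay between 73.5 and 77.9 CPM in the 3 pairs with no difference beyond counting error. In the 216 cycling fibroblast-like cells, those with at least 3 UMIs of cell cycle genes, Fgf10 was lower, at 98.3 CPM against 163 CPM in the others (ratio of others to cycling 1.66, 1.39 to 1.99), Fgf7 was at 33.3 against 46.2 CPM (1.39, 1.02 to 1.93) but was found at the matched depth in 4.63% (2.24 to 8.35%) against 3.82% (3.33 to 4.36%) of cells, so no order is given for it, and Hgf did not differ beyond counting error (1.29, 0.943 to 1.80).

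**Figure D2:**
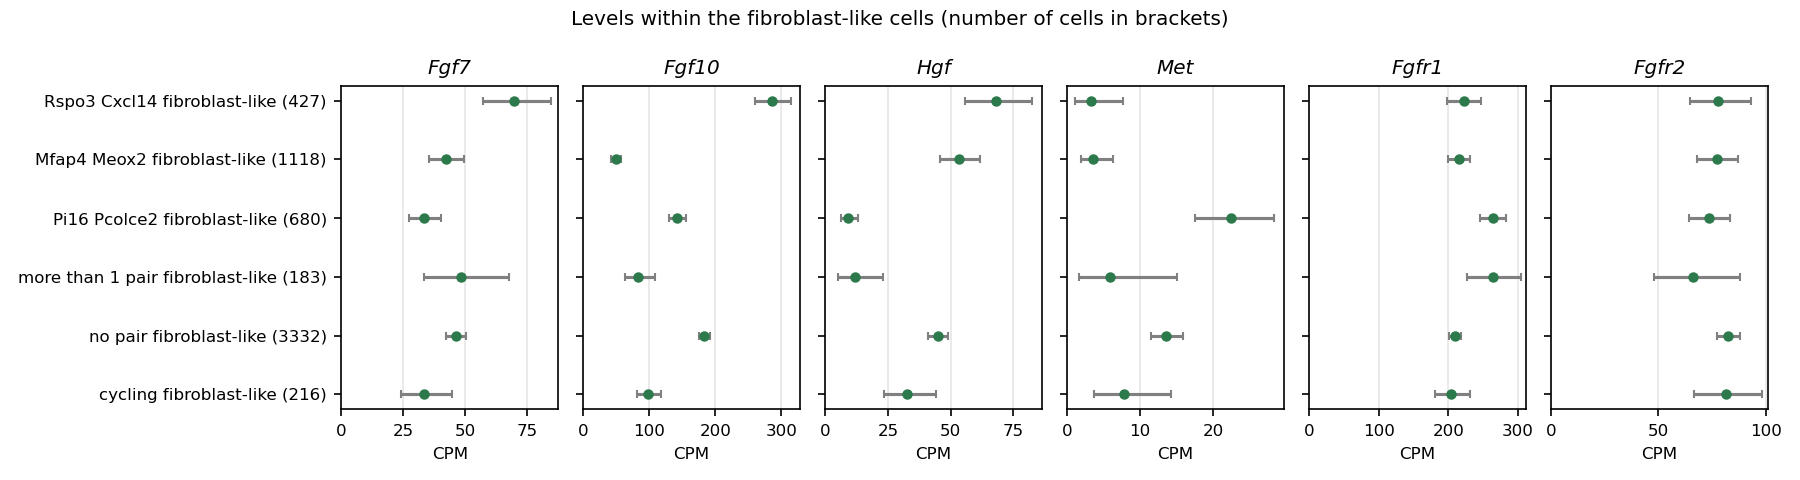
Levels (CPM, linear axes from 0) of 3 ligands and 3 receptors in fibroblast-like cells grouped by marker pair and in cycling cells, which overlap the pairs, with exact 95% Poisson intervals and the number of cells in brackets. Fgf10 runs from 286 CPM in Rspo3 Cxcl14 cells to 49.6 CPM in Mfap4 Meox2 cells, Hgf is lowest and Met highest in Pi16 Pcolce2 cells, and Fgfr2 is level.

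Met, the HGF receptor, was highest in mesothelial-like cells, at 76.4 CPM (66.9 to 86.8), and in duct-like cells, at 72.4 CPM (63.1 to 82.6), which did not differ beyond counting error (ratio 1.06, 0.874 to 1.27). Endothelial-like cells had 36.8 CPM (25.0 to 52.2), acinar-like cells 18.8 CPM (16.3 to 21.6) and fibroblast-like cells 12.2 CPM (10.7 to 13.8). Each step was beyond counting error, but the last 2 were not firm. Of the 31 endothelial-like UMIs 7 came from 1 cell, without which the level was 30.5 CPM (19.6 to 45.4), overlapping the acinar-like interval. Acinar-like cells under 10000 UMIs had 14.2 CPM (9.86 to 19.7), an interval that includes the 12.2 CPM of all fibroblast-like cells. Duct-like cells were 3.84 times (3.16 to 4.67) above acinar-like cells, and acinar-like cells were 8.17 times (3.44 to 25.4) above T cell-like cells, at 2.31 CPM. Digestive enzymes fill much of an acinar library, so with 34 enzyme genes left out of the total Met stood at 34.8 CPM in acinar-like and 90.0 CPM in duct-like cells. The first of these values lay within the endothelial-like interval. A UMI of Met was found in 62.7% of duct-like, 29.4% of mesothelial-like and 14.3% of acinar-like cells, against 0.553% of T cell-like cells, at median depths of 20354.5, 4017, 5265.5 and 1728.5 UMIs. At 800 UMIs per cell the shares were 3.39%, 6.40%, 1.33% and 0.111%, too low to order the first pair. The duct-like interval (0.931 to 8.45%) also overlapped the acinar-like one (0.691 to 2.32%), so the order of duct-like over acinar-like cells rests on the CPM scale. Of the fibroblast-like cells 59 fell in a mesothelial cluster when cells were clustered, with 61.0 CPM of Met (31.5 to 106.6), and the other 5681 had 11.7 CPM (10.3 to 13.3).

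Fgfr1 was highest in fibroblast-like cells, at 222 CPM (216 to 229), and these held 69.2% of its UMIs. Mesothelial-like cells came next at 141 CPM (128 to 155). From there the order ran through duct-like (121 CPM), smooth muscle-like (100.8 CPM), pericyte-like (92.2 CPM), endothelial-like (88.9 CPM) and Schwann-like cells (75.7 CPM), in which no neighbors differed beyond counting error. Acinar-like cells were lower, at 31.2 CPM (27.9 to 34.7), with duct-like cells 3.90 times (3.36 to 4.53) above them. T cell-like cells had 8.76 CPM.

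Fgfr2, whose IIIb form is the receptor of FGF7 and FGF10, was highest in duct-like cells, at 327 CPM (307 to 348, 1000 UMIs). Every other class with nuclei lay between 63.2 CPM in other immune-like cells and 123 CPM in endothelial-like cells. On total UMIs, acinar-like cells, at 80.3 CPM (75.1 to 85.8), did not differ from T cell-like cells, at 80.2 CPM (68.8 to 93.1). Their ratio was 1.00 (0.850 to 1.18), and neither differed from fibroblast-like cells (79.2 CPM) beyond counting error. Red blood cell-like cells had 8.77 CPM, so T cell-like cells stood 9.15 times (4.12 to 25.3) above a class without nuclei. With the enzyme genes left out of the total the acinar-like level was 148 CPM and the duct-like level 407 CPM. Acinar marker genes made up only 0.529% of T cell-like UMIs, so the match of acinar-like to T cell-like cells depends on the total used. The 3′ counts do not separate the IIIb and IIIc forms, and the part of the long gene model in these levels was not tested. On total UMIs, duct-like cells were 4.08 times (3.72 to 4.47) above acinar-like and 4.08 times (3.47 to 4.82) above T cell-like cells. The first ratio was smaller without the enzyme genes, with 407 against 148 CPM.

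Fgfr3 was concentrated in duct-like cells, which had 135 CPM (122 to 148) and 72.9% of its UMIs. Pericyte-like cells had 11.1 CPM from 3 UMIs, and the next class, endothelial-like, had 5.93 CPM from 5 UMIs. Cells with more than 1 gate, left out of the classes, held 64 UMIs, at 11.5 CPM (8.89 to 14.7). Duct-like cells were 39.6 times (28.2 to 57.0) above acinar-like cells (3.40 CPM) and 107 times (71.3 to 167) above fibroblast-like cells (1.26 CPM). In the 37 duct-like cells with under 10000 UMIs the level was 221 CPM. Fgfr4, a receptor that works with beta-Klotho for endocrine FGFs, had the same leading class at a lower count, with 38.3 CPM (31.7 to 45.9, 117 UMIs) in duct-like cells and 3.59 CPM in mesothelial-like cells, where 5 of 11 UMIs came from 1 cell and 1.96 CPM remained without it. Acinar-like cells had 0.551 CPM of Fgfr4 and duct-like cells were 69.5 times (31.0 to 193) above them.

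**Figure D3:**
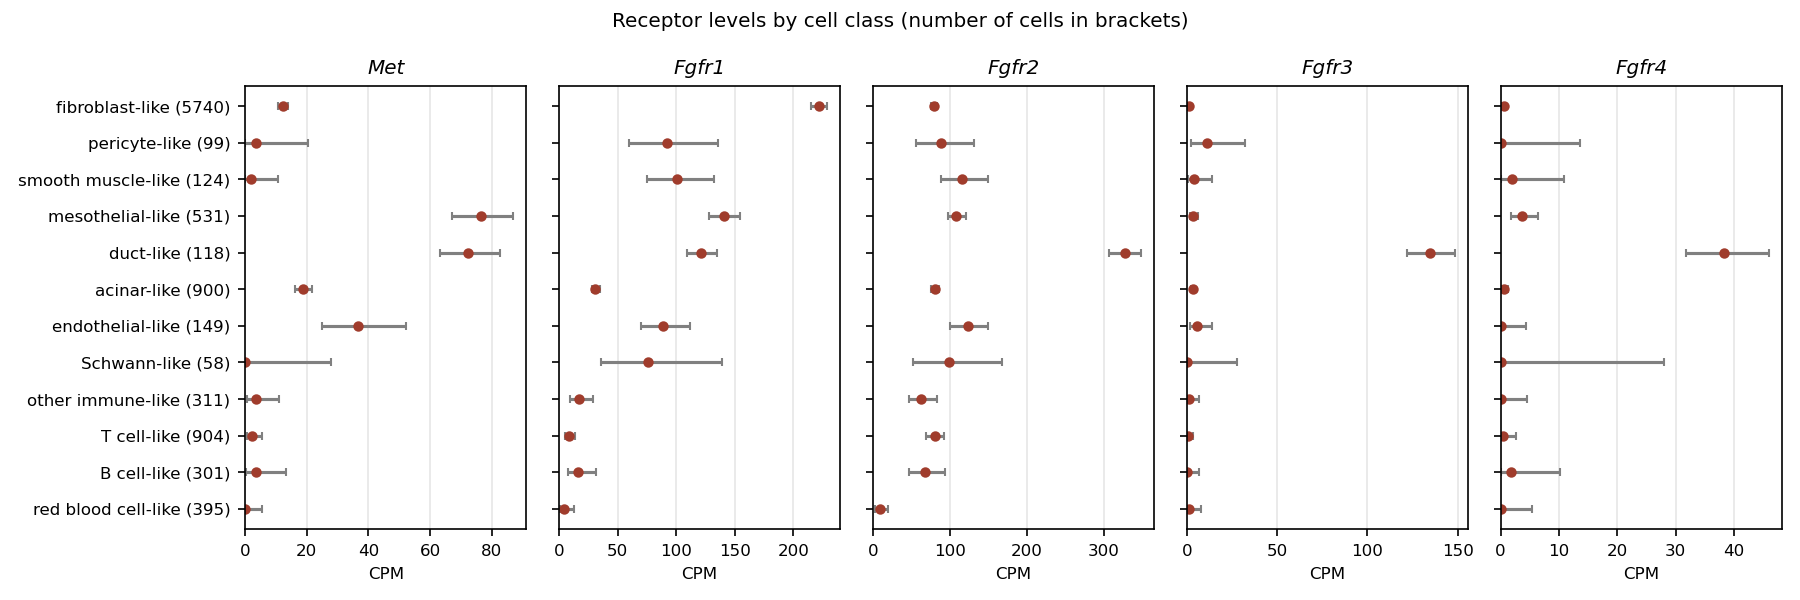
Levels (CPM, linear axes from 0, a separate scale for each gene) of Met and Fgfr1 to Fgfr4 in 12 cell classes, with exact 95% Poisson intervals and the number of cells in brackets. Duct-like cells lead for Fgfr2, Fgfr3 and Fgfr4 at 327, 135 and 38.3 CPM, mesothelial-like and duct-like cells share the top for Met, and Fgfr1 is highest in fibroblast-like cells at 222 CPM.

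Single duct-like cells often held several receptors. A UMI of Fgfr2 was present in 101 of 118 duct-like cells (85.6%), of Fgfr3 in 80 (67.8%), of Fgfr2 and Met together in 69 (58.5%) and of all 4 FGF receptors in 33 (28.0%), while 8 cells (6.78%) had none of the FGF receptors. In acinar-like cells Fgfr2 and Met were found together in 90 of 900 cells (10.0%), and 536 cells (59.6%) had no FGF receptor UMI. The duct-like cells were much the deeper, and T cell-like cells had a UMI of Fgfr2 in 15.9% at 1728.5 UMIs. At the matched depth Fgfr2 was found in 21.2% of duct-like, 3.89% of acinar-like and 5.20% of T cell-like cells, and Fgfr3 in 13.6% of duct-like and 0% of acinar-like cells.

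Receptor levels varied within both epithelial classes. When the duct-like cells were divided at the median share of acinar marker UMIs (9.73%), the 59 cells with the smaller share had 473 CPM of Fgfr2, 230 CPM of Fgfr3, 110 CPM of Met and 69.5 CPM of Fgfr4. The 59 cells with the larger share had 209, 56.9, 41.5 and 13.0 CPM. The ratios were 2.26 (1.98 to 2.58) for Fgfr2, 4.05 (3.21 to 5.14) for Fgfr3, 2.66 (1.99 to 3.59) for Met, 5.33 (3.32 to 8.90) for Fgfr4 and 2.08 (1.68 to 2.59) for Fgfr1. Median depths were 13656 and 24656 UMIs, and the part of acinar RNA or of depth in this difference was not tested.

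Acinar-like cells with under 10000 UMIs were divided by Malat1, an RNA kept in the nucleus, at its median level over all 900 acinar-like cells. The 213 cells at or above this level (1989 CPM) had 127 CPM of Fgfr2 (105 to 152) and the 390 cells below it 21.2 CPM (14.5 to 29.9), a ratio of 6.00 (4.04 to 9.15). A single cell gave 31 of the 122 UMIs of the first group, which was at 95.6 CPM without it. Met was at 26.0 and 6.62 CPM (ratio 3.93, 1.82 to 9.18), and Fgfr1 did not differ beyond counting error, at 20.8 and 17.2 CPM (ratio 1.21, 0.641 to 2.25). At the matched depth a UMI of Met was found in 1.88% (0.514 to 4.74%) and 0.256% (0.00649 to 1.42%) of these cells. Those intervals overlap, so the Met difference rests on the CPM scale. Malat1 and the receptors were scaled to the same total, which includes the enzyme UMIs. The part of that total in the Malat1 differences was not tested. Acinar-like cells with 10000 or more UMIs had 85.6 CPM of Fgfr2 against 62.3 CPM in the shallower ones (ratio 1.37, 1.15 to 1.65). Fgfr1 differed more by depth, at 34.8 against 18.6 CPM (ratio 1.87, 1.37 to 2.61). Fgfr3 was at 4.04 against 1.21 CPM (ratio 3.33, 1.05 to 16.9), with 3 UMIs in the shallower cells. Met and Fgfr4 did not differ by depth beyond counting error.

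**Figure D4:**
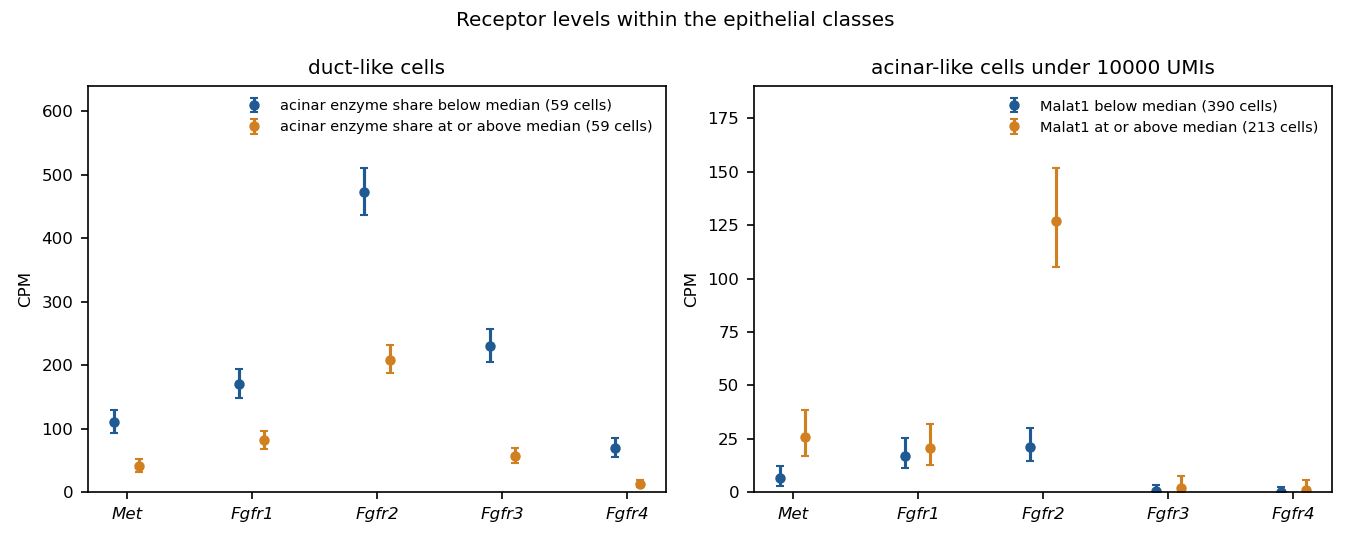
Levels (CPM, linear axes from 0) of Met and Fgfr1 to Fgfr4 in duct-like cells divided by the share of acinar marker UMIs (left) and in acinar-like cells with under 10000 UMIs divided by Malat1 at the median of all acinar-like cells (right), with exact 95% Poisson intervals. On the CPM scale all 5 receptors are higher in the duct-like cells with the smaller acinar share. At matched depth only Fgfr3 separated these cells beyond counting error. Among the acinar-like cells the CPM of Fgfr2 and Met is higher where Malat1 is higher.

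The wider pathway was compared between fibroblast-like cells and the pooled acinar-like and duct-like cells, calling a gene at a ratio of 2 or more. Of 15333 genes with enough UMIs, 36% were higher in fibroblast-like cells and 13.1% were lower. The totals kept the digestive enzyme UMIs, which lowers epithelial CPM, and the calls were not repeated without them. The part of the enzymes in calls near the cut, such as Gpc1 (ratio 2.60), Gpc4 (2.36), Gab1 (2.31) and Cbl (2.20), was not tested. Nor was it tested for Fgfr2, not called at an epithelial to fibroblast ratio of 1.70. Of the 8 members, Fgf7, Fgf10, Hgf and Fgfr1 were past the fold on the fibroblast side and Met, Fgfr3 and Fgfr4 on the epithelial side. Most epithelial UMIs of Fgfr3 and Fgfr4 were duct-like (411 of 448 and 117 of 123). Acinar-like cells alone did not differ from fibroblast-like cells in Fgfr4 beyond counting error (0.551 against 0.504 CPM). Their Met, at 18.8 against 12.2 CPM, stayed under the 2-fold call on total UMIs. It was 34.8 CPM in acinar-like cells with the enzyme genes left out. Their Fgfr3 was at 3.40 against 1.26 CPM. Of the 60 pathway genes 48 had enough UMIs, 27 of them higher and 11 lower in fibroblast-like cells, with a median log2 ratio of 1.30 against 0.61 over all genes tested.

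Among 16 other secreted FGF ligands, 7 had enough UMIs, with 4 higher in fibroblast-like cells and 2 lower. Over all genes tested these shares were 36% and 13.1%. Fgf18 was at 29.7 CPM in fibroblast-like and 0.359 CPM in epithelial cells (ratio 82.7, 35.2 to 256), and Fgf2, the basic FGF, at 59.7 and 3.52 CPM (ratio 17.0, 12.8 to 23.1). Mesothelial-like cells were the main site of Fgf1, an FGF that binds all FGF receptors, at 352 CPM, and of Fgf9, at 108 CPM against 1.41 CPM in fibroblast-like cells. On the CPM scale Fgf1, Fgf2 and Fgf18 were all highest in Pi16 Pcolce2 cells among the fibroblast pairs, at 44.6, 96.9 and 46.5 CPM. Fgf7 and Fgf10 were highest in Rspo3 Cxcl14 cells on that scale. The 4 homologues that stay in the cell and are not receptor ligands gave 1 gene on the fibroblast side, Fgf11, a share below that of all genes. Fgf12 was at 133 CPM in duct-like cells.

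Of the decoy receptor, co-receptors and carriers, Klb, which encodes beta-Klotho, was on the epithelial side at 8.90 against 0.404 CPM (22.0 times, 10.8 to 52.2). It was at 9.46 CPM in acinar-like cells, which had few UMIs of Fgfr4, and at 6.88 CPM in duct-like cells. Fgfrl1, a receptor without a kinase domain, was 2.82 times (2.25 to 3.55) higher in the epithelial cells, and Kl was higher in fibroblast-like cells. Of 9 heparan sulfate proteins, which hold FGFs at the cell surface, 6 were on the fibroblast side, against 36% of all genes tested. Among them were Gpc3 at 1430 against 132 CPM and Gpc6 at 686 against 31.8 CPM. Another, Sdc4, was on the epithelial side at 112 against 39.6 CPM, against 13.1% of all genes.

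Genes of HGF activation and its inhibition lay mostly on the epithelial side. Of the 8 listed, 7 had enough UMIs, with 5 higher in epithelial and 2 in fibroblast-like cells and a median log2 ratio of -4.58. Over all genes tested the shares were 13.1% and 36%. The serine proteases matriptase (St14) and hepsin (Hpn) were at 28.7 and 22.3 CPM in epithelial cells and at 0.555 and 0.908 CPM in fibroblast-like cells. The HGF activator gene Hgfac was at 11.3 and 0.454 CPM. Their membrane-bound inhibitors, Spint1 and Spint2, were on the same side, at 29.1 against 0.706 CPM and 264 against 7.87 CPM. The plasminogen activators Plau and Plat were on the fibroblast side, at 18.2 against 0.502 CPM and 170 against 7.18 CPM. Both were highest in Pi16 Pcolce2 cells, where Plat was at 340 CPM and 4.19 times (3.67 to 4.81) above Mfap4 Meox2 cells. Plat did not differ beyond counting error between Mfap4 Meox2 and Rspo3 Cxcl14 cells (1.08, 0.862 to 1.35), and Plau was at 45.0 CPM in Pi16 Pcolce2, 10.6 CPM in Rspo3 Cxcl14 and 4.16 CPM in Mfap4 Meox2 cells.

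Of 13 adaptors, feedback inhibitors and targets of FGF signaling 9 were higher in fibroblast-like cells and 1, Etv4, lower. Over all genes tested 36% were higher and 13.1% lower. The feedback inhibitors Spry2 and Spred1 were at 196 and 220 CPM in fibroblast-like cells against 20.1 and 36.7 CPM. The transcription factor gene Etv5 was at 26.7 against 29.9 CPM, within counting error (ratio 0.896, 0.786 to 1.02), and reached 47.8 CPM in duct-like cells. Within the fibroblasts Spry4 was at 49.5 CPM in Rspo3 Cxcl14 and 33.5 CPM in Mfap4 Meox2 cells against 4.75 CPM in Pi16 Pcolce2 cells, and Dusp6, a phosphatase that acts on ERK, was at 37.6, 74.2 and 17.1 CPM. Spry2 and Spred1 were highest in Rspo3 Cxcl14 cells, at 242 and 341 CPM, and did not differ beyond counting error between Pi16 Pcolce2 cells (181 and 171 CPM) and Mfap4 Meox2 cells (165 and 156 CPM), with ratios of 1.10 (0.973 to 1.23) and 1.10 (0.971 to 1.24). Mst1r, the MET relative that binds macrophage stimulating protein, was on the fibroblast side at 6.51 against 0.144 CPM and was highest in mesothelial-like cells, at 17.6 CPM. Of the 3 MET adaptors Gab1 and Cbl were past the fold on the fibroblast side on total UMIs, at ratios of 2.31 and 2.20, and Grb2 was not.

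**Figure D5:**
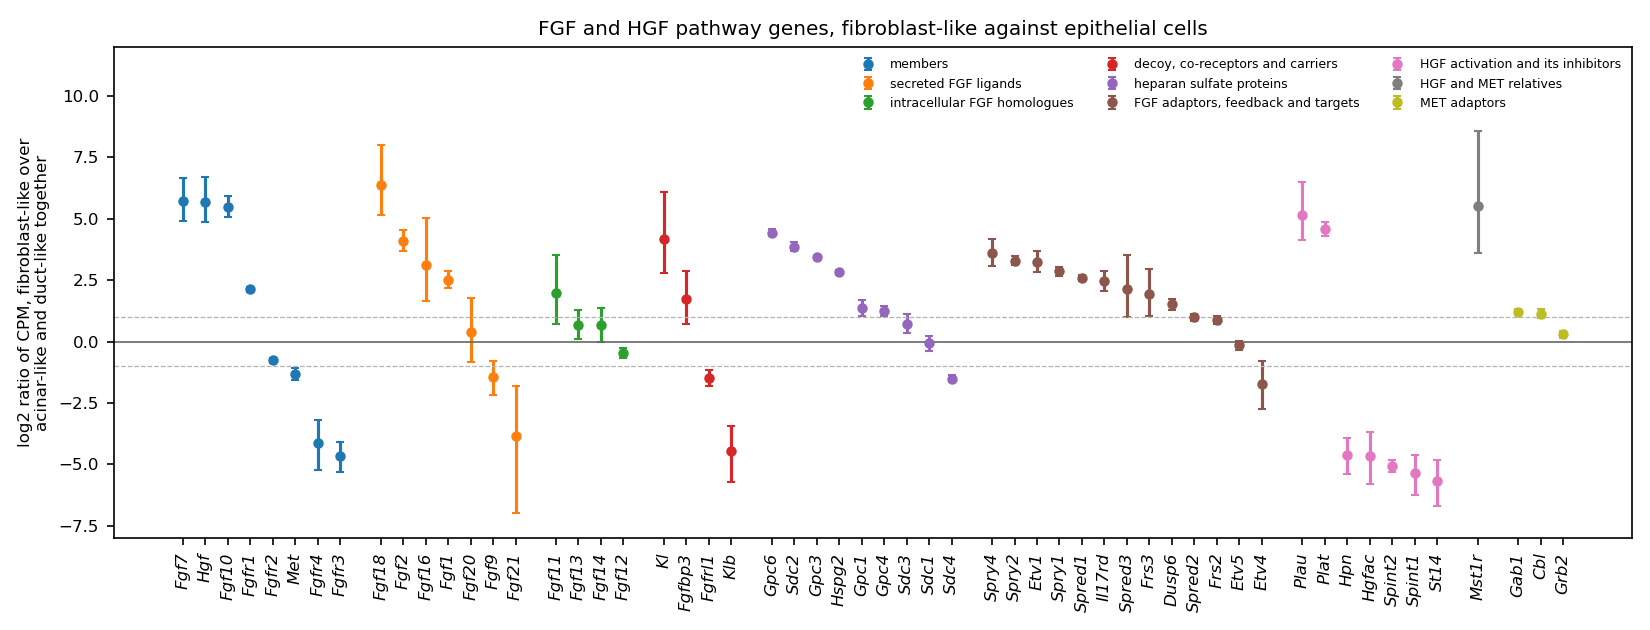
Log2 ratio of CPM in fibroblast-like cells over pooled acinar-like and duct-like cells, for the 8 members and the 48 pathway genes with enough UMIs, grouped by role and ordered within each, with exact 95% intervals and dashed lines at a 2-fold ratio. The ligands Fgf7, Fgf10 and Hgf stand 45.1 to 52.7 times higher on the fibroblast side. Fgfr3 and Fgfr4 stand 25.5 and 17.5 times higher on the epithelial side, near the HGF-activating proteases and their inhibitors. Most epithelial UMIs of Fgfr3 and Fgfr4 came from duct-like cells.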

How the data were processed

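Droplet libraries were prepared with the 10x Genomics 3′ v3.1 chemistry from pooled mouse pancreata. The authors deposited raw counts of unique molecular identifiers (UMIs) per gene and barcode, made with Cell Ranger 7.1.0 on the mm10 reference with default parameters, which in that version keep intronic reads. The values were whole numbers. The library of Scap Δpanc mice was left out and is not used here.

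A barcode was kept when its UMIs numbered above 800 and below 100000 and its mitochondrial share was below 15% (10947 of 11789 barcodes). The paper states an upper limit of 10000 UMIs instead. The higher limit used here takes in 81 of the 118 duct-like and 297 of the 900 acinar-like cells. Cells were assigned to classes by the share of their UMIs from marker lists. The members, the markers and other lists, the shares that define a class and the fibroblast gene pairs were all chosen with earlier results of these data known. Some overlaps were settled by precedence. Duct-like came before acinar-like and mesothelial-like, and smooth muscle-like, pericyte-like, mesothelial-like and Schwann-like came before fibroblast-like. Between smooth muscle-like and pericyte-like the larger marker share relative to its cut decided. Cells that still passed more than 1 gate were left out of the classes. No member entered a gate. Doublets were marked with Scrublet (scanpy 1.11.5) but kept, since 537 of 10947 cells (4.91%) were marked and 329 of these already lay in the group that passed more than 1 gate.

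Levels were computed as UMIs of a gene summed over a class per 1000000 UMIs of that class (CPM), with exact 95% Poisson intervals. Shares of cells carry exact Clopper-Pearson intervals, and ratios carry exact conditional intervals. All of them cover counting error only, and because a few cells can hold many UMIs they understate the spread between cells. A count of 0 was taken to allow up to 3 counts. For shares at matched depth each cell was thinned to 800 UMIs. There was 1 library per group, so no test between animals or conditions was possible and no p-value is given. Gene and pathway ratios across the whole table used genes with at least 20 UMIs in the cells compared. The genes named were the 8 members, the 60 genes of a pathway list and, for each member, the 3 other genes with at least 100 UMIs whose log2(CPM + 10) over 15 classes was most alike by Pearson's r. Malat1, the splits of the acinar-like and duct-like cells and the levels without the richest cell were added after the data had been seen. The ratio code was tested on simulated data. Gene positions were taken from GENCODE M21 and promoter windows from RefSeq, both on GRCm38. The 9 alternatives tried are described at the end.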

Additional observations from a re-analysis of the deposited data

Results flagged for a closer look

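UMIs of the receptors and of Fgf10 were also present in the 14 barcodes with 100000 or more UMIs, which the limits leave out. In their pooled UMIs Met lay at 16.8 CPM, Fgfr1 at 35.3 CPM and Fgfr2 at 72.9 CPM, above what a count of 0 would allow (1.74 CPM). Fgf10 at 4.05 CPM (1.63 to 8.35), Fgfr3 at 3.47 CPM (1.27 to 7.56) and Fgfr4 at 4.05 CPM (1.63 to 8.35) had intervals that reached below that value. The Fgf10 level was 3.22 CPM in acinar-like cells. The acinar marker genes made up 20.2% of the UMIs of these barcodes, against 23.9% in the acinar-like cells. Of the 7 Fgfr4 UMIs, 6 came from 1 barcode. Hgf had 0 UMIs there.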

How the results depend on the processing

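The levels of 10 gene and class pairs were recomputed under 9 alternatives, and 70 of the 90 values stayed within the 95% counting interval of the value reported. The other 20 were as follows, in CPM. With an upper limit of 10000 UMIs, which leaves 37 duct-like cells, Fgf10 in fibroblast-like cells was 149, Fgfr2 was 62.3 in acinar-like and 397 in duct-like cells, Fgfr3 in duct-like cells was 221, and Met was 14.2 in acinar-like and 60.2 in duct-like cells. With the mean of the cells' own CPM, Fgf10 and Fgfr1 in fibroblast-like cells were 143 and 206, and Fgfr2 and Met in acinar-like cells were 66.1 and 13.5. With clusters in place of gates, Fgfr2, Fgfr3 and Met in duct-like cells were 281, 109 and 58.5. With 34 digestive enzyme genes left out of the total, Fgfr2 was 148 in acinar-like and 407 in duct-like cells, Fgfr3 in duct-like cells was 167, and Met was 34.8 in acinar-like and 90.0 in duct-like cells, which follows from the smaller total. With the gate shares doubled, Fgfr2 and Fgfr3 in duct-like cells were 374 and 163. The cause of the other shifts was not tested. Raising the smallest depth to 1500 UMIs, tightening the mitochondrial limit to 5% and leaving out Scrublet doublets moved none of the 10 levels out of its interval. Nor did subtracting an ambient profile, the mean count per red blood cell-like cell. That profile held 0 UMIs of Fgf7, Met and Fgfr4, so it could not move the levels or ratios of these genes. For the other members it rested on 1 to 6 UMIs. All 8 ratios between fibroblast subsets stayed above 1 in each of the 72 recomputations, which were chosen after seeing the data, and 69 of these stayed within the interval. The other 3 came with clusters in place of gates, where Fgf10 was 1.48 times higher in Rspo3 Cxcl14 than in Pi16 Pcolce2 cells (2.01 by gates) and 4.08 times higher in Pi16 Pcolce2 than in Mfap4 Meox2 cells (2.87 by gates), and Hgf was 3.59 times higher in Rspo3 Cxcl14 than in Pi16 Pcolce2 cells (7.41 by gates). No paired analysis was possible because there was 1 library. For the same reason no replicate could be left out. Depth limits Fgfr3 and Fgfr4 most, with 564 and 155 UMIs in all kept cells.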

Other observations

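Genes outside the pathway list whose levels over 15 classes ran most alike to each member are given here as a description, since classes share 1 library and genes were searched among 13352. For Fgf7 these were Ms4a4d (r = 0.992), Agtr2 (r = 0.988) and Dchs2 (r = 0.976), each highest in the Rspo3 Cxcl14 fibroblast-like cells. Agtr2 encodes an angiotensin II receptor. For Fgf10 they were Steap3 (r = 0.981), Ccdc170 (r = 0.978) and Scara5 (r = 0.968), the last a ferritin receptor that was highest in the Pi16 Pcolce2 cells, at 302 CPM. For Hgf they were 1700109K24Rik (r = 0.914), B3galt1 (r = 0.910) and Adamts4 (r = 0.901), a secreted protease that cleaves aggrecan.

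Among the receptors, Met ran most alike to Tgfa (r = 0.903), Trpv4 (r = 0.897) and Shb (r = 0.894). Tgfa, a ligand of the EGF receptor, lay at 43.2 CPM in duct-like and 35.9 CPM in mesothelial-like cells. The genes nearest to Fgfr1 were Pkd2 (r = 0.973), Golim4 (r = 0.973) and Trip6 (r = 0.968), and those nearest to Fgfr2 were Gcn1 (r = 0.937), Ammecr1l (r = 0.905) and Midn (r = 0.905). The duct-like pattern of Fgfr3 was shared by Dcx (r = 0.990), a microtubule-binding protein best known from migrating neurons, at 91.0 CPM in duct-like cells, and by Itgb6 (r = 0.965) and A230001M10Rik (r = 0.962). That of Fgfr4 was shared by the glucose transporter gene Slc2a2 (r = 0.986), the keratin gene Krt23 (r = 0.980) and the claudin gene Cldn2 (r = 0.976), at 21.9, 79.2 and 54.4 CPM in duct-like cells.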
